A study of Mus musculus with 10 samples.

Results

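Iron handling genes were followed in mouse leukaemic progenitor cells in which a mutant DNMT3A transgene had been turned off or left on. The set holds 10 genes, listed by name as iron uptake, export, storage and sensing genes and found by symbol in the count table, out of 52636 genes in all. Every one of the 10 passed the filter on low counts, which left 15916 genes for testing.

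The cells belong to a model called DIN. Fetal liver cells were transduced with 3 retroviral MSCV vectors that carry DNMT3A R882H, IDH2 R140Q and NRAS G12D, and leukaemic cells frozen from moribund recipients were passed on to further Ptprca recipient mice. Doxycycline in food and water switches the DNMT3A R882H vector off, while the IDH2 R140Q and NRAS G12D vectors are present in every group. The groups are day 14 off (14 days of doxycycline, 4 libraries), day 14 on (normal chow and water, 2 libraries), day 5 off (5 days of doxycycline, 2 libraries) and day 5 on (normal chow and water, 2 libraries). At the end, cells with cKit and without Cd11b on their surface were sorted from marrow and spleen. The labels give neither the organ nor the mouse behind a library, nor how many primary leukaemias were used, so a p-value here measures the spread between libraries, which may be technical. No group had doxycycline without the regulated vector, so the drug and the loss of DNMT3A R882H cannot be told apart.

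Cells take up iron bound to transferrin through the transferrin receptor, reduce it inside endosomes and move it to the cytosol through a divalent metal transporter. Spare iron is kept in ferritin shells or leaves the cell through ferroportin. The iron regulatory proteins sense iron and bind hairpins called iron-responsive elements in messenger RNAs: a hairpin before the coding region blocks translation, and hairpins after it protect the RNA from decay. Red cell precursors are the main users of iron in marrow, and several uptake genes are known for high expression in them.

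The hairpins are shown first because this RNA control acts on translation as well as on RNA level, whereas only RNA was measured here. The search does not mark every gene known to carry a hairpin, Slc11a2 among those it missed. The search was for the loop CAGTGN with 5 bases of any kind on each side that can pair with each other (G with U allowed) and an unpaired C before them, on the transcript's own strand in GENCODE M21 transcripts. Of 21901 protein-coding genes 294 (1.34%) held a match, and 4 of the 10 iron genes did. The sites lie in the 5′ UTR of Fth1 (chr19:9982733-9982759, plus strand, mm10), Ftl1 (chr7:45459780-45459806, minus strand) and Slc40a1 (chr1:45925466-45925492, minus strand), and in the 3′ UTR of Tfrc, where 4 sites lie on the plus strand at chr16:32631220-32631246, chr16:32631599-32631625, chr16:32631664-32631690 and chr16:32631711-32631737. Capitals mark the 6-base loop.
Fth1: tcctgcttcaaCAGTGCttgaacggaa
Ftl1: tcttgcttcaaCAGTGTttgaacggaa
Slc40a1: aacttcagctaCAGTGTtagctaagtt
Tfrc site 1: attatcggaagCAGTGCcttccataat
Tfrc site 2: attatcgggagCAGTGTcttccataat
Tfrc site 3: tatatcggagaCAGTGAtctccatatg
Tfrc site 4: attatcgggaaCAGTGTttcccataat
The other 6 genes had no match, which says only that these letters are not in their listed transcripts. The libraries count reads from the 3′ end of messenger RNA per gene, so isoforms with and without a hairpin (known for Slc11a2) were not separated.

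Total counts ran from 9292644 to 14340624 per library, and a count of 0 allows up to 3 counts, which stood for 0.209 to 0.323 CPM (read counts relative to library size, scaled between libraries by TMM). Loci of ribosomal RNA took 7.78% to 16.5% of the counts. The sort marker Kit had 30.9 to 36.4 CPM in day 14 off libraries, 88.9 and 98.1 CPM in day 14 on libraries, 43.3 and 40.3 CPM in day 5 off libraries and 51.3 and 56.2 CPM in day 5 on libraries. Itgam, which encodes Cd11b, had 2.07 to 3.73 CPM in day 14 off, 21.9 and 8.76 CPM in day 14 on, 14.6 and 3.17 CPM in day 5 off, and 6.74 and 3.08 CPM in day 5 on libraries. Dnmt3a reads at the 3′ end do not check the labels, because the labels do not say whether the vector carries that end. Dnmt3a was lower off than on at day 14 (log2 −0.90 ± 0.16, SE, edgeR adjusted p = 0.00186). At day 5 it was not called (0.15 ± 0.19, edgeR adjusted p = 0.754). The difference between the days was called (−1.05 ± 0.25, edgeR adjusted p = 0.0492). The libraries differed in markers of cell types: summed over 9 erythroid precursor genes (Gata1, Klf1, Epor, Car1, Ermap, Rhag, Slc4a1, Tspan33 and Nfe2) the level was 1541 to 1679 CPM in day 14 off, 69.6 to 87.5 CPM in day 14 on, 154 and 444 CPM in day 5 off replicates 1 and 2, and 57.8 to 72.5 CPM in day 5 on. Most of that sum in day 14 off libraries was Car1 alone, at 1138 to 1259 CPM. In day 5 off replicate 2 Car1 had 314 CPM. None of the 9 was at 0 in any library. The list also held the globins Hba-a1 and Hbb-bt, which were left out of this sum after the data were seen. With them the sum was 2562 to 3317 CPM in day 14 off and 857 to 1527 CPM in day 14 on. At day 5 it was then 777 to 1663 CPM off and 1085 to 2599 CPM on, so day 5 off no longer lay above day 5 on. In such bulk libraries more cells of a type and more RNA per cell cannot be told apart.

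**Figure D1:**
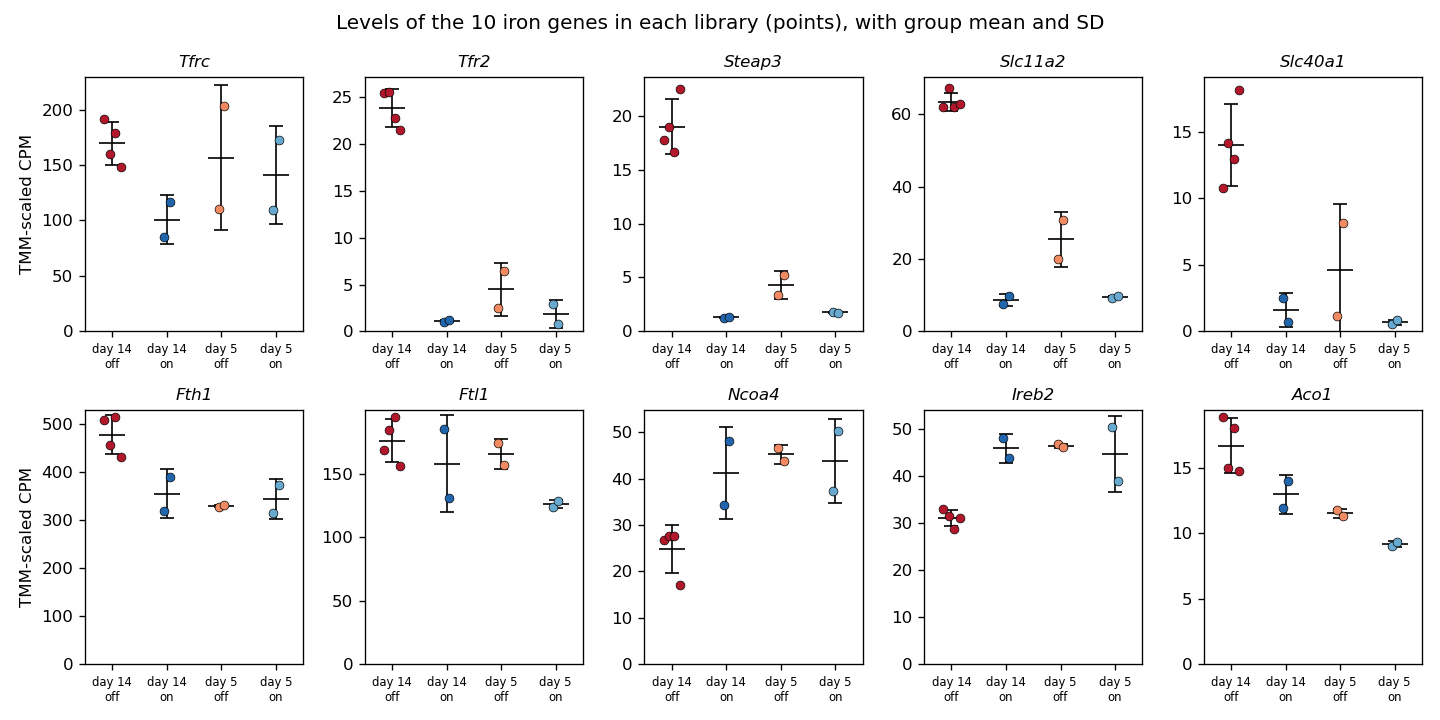
Level of each of the 10 iron genes in TMM-scaled CPM (linear axis from 0) by group; each point is a library, and the horizontal mark and bars are the group mean and SD (n = 4, 2, 2 and 2; bars that would pass below 0 are cut there). Tfr2, Steap3, Slc11a2 and Slc40a1 are higher in the 4 day 14 off libraries than in any other library, and Ireb2 and Ncoa4 are lower there.

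At day 14 the uptake and export genes Tfr2, Steap3, Slc11a2 and Slc40a1 were 7.31 to 21.3 times higher with DNMT3A R882H off than on. Fth1, the ferritin heavy chain, was 1.35 times higher, while Ncoa4, the receptor that carries ferritin to autophagy, and Ireb2, which encodes iron regulatory protein 2, were lower. Tfrc, Ftl1 and Aco1 were not called. Of the 10 genes 5 were called higher and 2 lower at an edgeR adjusted p of 0.05, against 31.8% of all 15916 tested genes called in either direction (16.9% higher and 14.9% lower). The median log2 change of the 10 was 0.59, against 0.01 over all tested genes. The background count of 5063 called genes became 2985 without day 14 on replicate 1 and 3269 without day 14 on replicate 2, and the iron genes called became 5 in each case.

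Tfr2 encodes the second transferrin receptor, which in red cell precursors associates with the erythropoietin receptor and in liver senses transferrin iron (ENSMUSG00000029716, chr5:137569840-137587481, mm10). It had 25.5, 25.6, 22.8 and 21.6 CPM in day 14 off libraries, against 1.04 and 1.17 CPM in day 14 on libraries. The 4 off values lie close together, far above both on values. The log2 change was 4.42 ± 0.51 (SE), or 21.3-fold, with an edgeR adjusted p of 2.12e-04. The day 14 on values rest on 10 and 13 reads.

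Steap3 encodes the endosomal ferrireductase that turns ferric into ferrous iron for export to the cytosol (ENSMUSG00000026389, chr1:120190757-120272705). It had 17.8, 19.0, 16.6 and 22.5 CPM in day 14 off libraries, against 1.24 and 1.35 CPM in day 14 on libraries. Again no off value came near an on value. The change was 3.85 ± 0.28 on the log2 scale (SE), or 14.4-fold, with an edgeR adjusted p of 3.53e-05.

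Slc11a2 encodes DMT1, the divalent metal transporter that carries ferrous iron out of the endosome (ENSMUSG00000023030, chr15:100387898-100425072). Its day 14 off libraries held 62.0, 67.2, 62.0 and 62.7 CPM, against 7.46 and 9.84 CPM in day 14 on libraries. The off libraries were nearly equal, with replicate 2 the highest. The log2 change was 2.87 ± 0.21 (SE), or 7.31-fold, with an edgeR adjusted p of 3.65e-05. A second annotated gene, Gm5475, overlaps Slc11a2 and had at most 16.9% of its count in a library. The calls of Tfr2, Steap3 and Slc11a2 at day 14 held under all 18 alternatives run, with log2 changes of 4.30 to 4.52, 3.74 to 3.92 and 2.66 to 3.09 in that order.

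Tfrc, the first transferrin receptor and the main entry of iron into dividing cells (ENSMUSG00000022797, chr16:32608920-32632794), had 191, 160, 179 and 148 CPM in day 14 off libraries, against 85.1 and 116 CPM in day 14 on libraries. The groups did not overlap, but the log2 change of 0.75 ± 0.26 (SE; interval of 2 SE 0.22 to 1.28) just missed the threshold, with an edgeR adjusted p of 0.0523. It was called with no low-count filter (edgeR adjusted p = 6.50e-04), when the fit held only the day 14 libraries (0.70, edgeR adjusted p = 0.00842), with DESeq2 (adjusted p = 0.0339) and with limma voom (adjusted p = 0.0435), and also when any 1 of the 4 day 5 libraries was left out (edgeR adjusted p from 0.0233 to 0.0452). Tfrc was called under 9 of 18 alternatives, with log2 changes from 0.51 to 0.996 over all 18. In this gene, whose 4 hairpins are printed above, the change was the smallest of the 4 uptake genes.

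Slc40a1 encodes ferroportin, the iron exporter (ENSMUSG00000025993, chr1:45908068-45926523). It had 10.8, 14.1, 12.9 and 18.2 CPM in day 14 off libraries, against 2.49 and 0.723 CPM in day 14 on libraries. The off libraries were all higher, and the on values rest on 24 and 8 reads. The log2 change was 3.14 ± 0.71 (SE), or 8.83-fold, with an edgeR adjusted p of 0.00800. Without day 14 on replicate 2 the change was 2.49 and not called (edgeR adjusted p = 0.0679), and without day 14 on replicate 1 it was 4.22. Ferroportin is abundant in macrophages that recycle red cells. The summed level of 12 macrophage markers was 18.1 to 45.8 CPM in day 14 off and 26.0 and 39.8 CPM in day 14 on libraries. Of the 11 tested markers 0 were called higher and 2 lower, against 16.9% and 14.9% of all tested genes. At day 5 the sum was 9.17 to 10.8 CPM off and 17.0 to 17.4 CPM on. The part of macrophages in the Slc40a1 result was not tested.

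Among the storage genes, Fth1 (ferritin heavy chain, which oxidises iron as it enters the shell; ENSMUSG00000024661, chr19:9980598-9985098) had 509, 458, 516 and 433 CPM in day 14 off libraries, against 320 and 392 CPM in day 14 on libraries. All off libraries were higher than both on libraries, by a margin smaller than the spread within the off group. The log2 change was 0.43 ± 0.14 (SE), or 1.35-fold, with an edgeR adjusted p of 0.0336. This call was lost under 10 of 19 alternatives, among them RLE scaling (edgeR adjusted p = 0.0549), both other filters (0.0835 and 0.0611) and leaving out any of 7 single libraries (0.0505 to 0.356): each day 14 off library, day 14 on replicate 1 and each day 5 off library.

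Ftl1, the ferritin light chain, which helps iron form its mineral core (ENSMUSG00000050708, chr7:45457944-45459884), had 168, 184, 194 and 156 CPM in day 14 off libraries, against 185 and 131 CPM in day 14 on libraries. The groups overlapped, and the log2 change of 0.16 ± 0.15 (SE; 2 SE interval −0.15 to 0.47) was not called (edgeR adjusted p = 0.477). Ftl1 is an uncertain value: the near-identical copy Ftl1-ps1 had 34.8% to 44.1% of its count in every library, and Gm22133, annotated within the gene, had 40.1% to 47.2%, so reads of these features cannot be told apart. Within a library the counts stood at 3.02, 2.48, 2.65 and 2.78 Fth1 reads for 1 Ftl1 read in day 14 off, 1.73 and 2.99 in day 14 on, 1.89 and 2.11 in day 5 off, and 2.55 and 2.92 in day 5 on.

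Ncoa4 (ENSMUSG00000056234, chr14:32159865-32179855) had 26.8, 27.7, 27.6 and 17.0 CPM in day 14 off libraries, against 34.2 and 48.1 CPM in day 14 on libraries. No off library reached an on library, and day 14 off replicate 4 was lowest. The log2 change was −0.73 ± 0.22 (SE), that is 1.66 times lower, with an edgeR adjusted p of 0.0262. Without day 14 on replicate 2 it was −0.46 and not called (edgeR adjusted p = 0.258).

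Of the 2 iron regulatory proteins, Ireb2 was called and Aco1 was not. Ireb2 (ENSMUSG00000032293, chr9:54863789-54912530), whose protein is known to be degraded when iron is plentiful, had 33.0, 31.6, 28.8 and 31.2 CPM in day 14 off libraries, against 48.1 and 43.8 CPM in day 14 on libraries. The off libraries were alike and all lower. The log2 change was −0.56 ± 0.14 (SE), that is 1.48 times lower, with an edgeR adjusted p of 0.0102. It was not called without day 14 on replicate 1, at −0.52 (edgeR adjusted p = 0.0701).

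Aco1 encodes iron regulatory protein 1, which with an iron-sulfur cluster is the cytosolic aconitase (ENSMUSG00000028405, chr4:40143081-40198338). It had 18.9, 15.0, 18.0 and 14.8 CPM in day 14 off libraries, against 11.9 and 14.0 CPM in day 14 on libraries. All off values were higher, the lowest of them by little, and the change of 0.36 ± 0.17 (log2, SE; 2 SE interval 0.01 to 0.71) was not called (edgeR adjusted p = 0.138). Within a library there were 1.75, 2.10, 1.60 and 2.11 Ireb2 reads for 1 Aco1 read in day 14 off and 4.03 and 3.13 in day 14 on. At day 5 the same count ratio was 3.98 and 4.09 off and 5.61 and 4.19 on. These ratios need no scaling between libraries, and the 4 day 14 off libraries lay below the 6 others. Ncoa4 against Fth1 gave 0.0528, 0.0604, 0.0535 and 0.0393 in day 14 off, 0.107 and 0.123 in day 14 on, 0.142 and 0.132 in day 5 off and 0.118 and 0.134 in day 5 on. Here too the day 14 off libraries lay below all 6 others, with no test run.

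**Figure D2:**
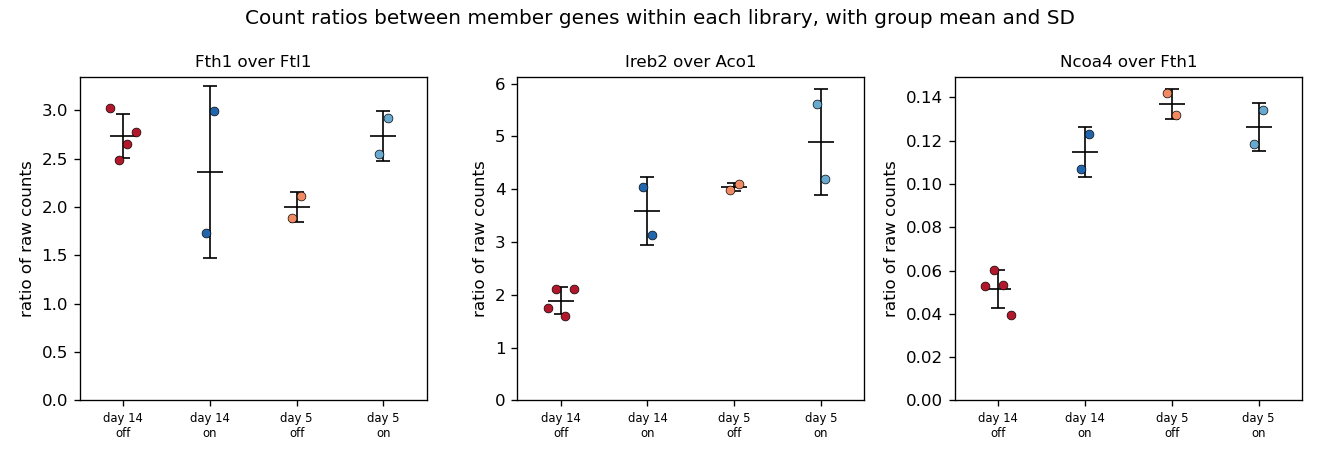
Ratios of raw counts between pairs of iron genes in each library (points), with the group mean and SD; reads per gene, not molecules per length. Ireb2 over Aco1 is 1.60 to 2.11 and Ncoa4 over Fth1 0.0393 to 0.0604 in day 14 off libraries, below the 6 others. Fth1 over Ftl1 overlaps between off and on at day 14. At day 5 it is 1.89 to 2.11 off and 2.55 to 2.92 on, without overlap and with no test run.

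At day 5 only Slc11a2 was called. It had 20.0 and 30.8 CPM in day 5 off libraries, against 9.33 and 9.76 CPM in day 5 on libraries, a log2 change of 1.41 ± 0.22 (SE), or 2.67-fold (edgeR adjusted p = 0.0340). Both off values were above both on values, and the higher of them came from replicate 2, which also had the higher erythroid marker sum. That 1 of 10 compares with 0.484% of tested genes called in either direction (0.371% higher), 77 genes. That background count was 0 without day 14 off replicate 1 or 4, 9 without day 14 off replicate 2 or 3 or day 5 on replicate 2, and 2 without day 5 off replicate 2, but 145 without day 5 off replicate 1 and 304 without day 5 on replicate 1. With day 5 off replicate 1 left out, 2 of the 10 were called. At an unadjusted p under 0.05 edgeR had 4 of the 10 and 2374 of all genes, and the median log2 change was 0.36 for the 10 against −0.02 for all genes. The Slc11a2 call was lost with limma voom (adjusted p = 0.0621), in a fit of the day 5 libraries alone (edgeR adjusted p = 0.374) and without any day 14 off library (0.0544 to 0.0745), day 5 off replicate 2 (0.184) or day 5 on replicate 2 (0.0999), with a log2 change of 1.06 to 1.70 throughout.

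The other 3 genes with large changes at day 14 were not called at day 5. Steap3 had 3.40 and 5.19 CPM in day 5 off libraries, against 1.80 and 1.73 CPM in day 5 on libraries (log2 1.29 ± 0.29, SE; edgeR adjusted p = 0.0880). Its groups did not overlap. Tfr2 had 2.47 and 6.49 CPM in day 5 off libraries, against 2.92 and 0.826 CPM in day 5 on libraries (1.36 ± 0.52; edgeR adjusted p = 0.270), so that off replicate 1 lay below on replicate 1. Slc40a1 had 1.13 and 8.12 CPM in day 5 off libraries, against 0.562 and 0.826 CPM in day 5 on libraries (2.71 ± 0.85; edgeR adjusted p = 0.197). Its 2 off libraries differ by 11 against 100 reads: without day 5 off replicate 2 the change was 0.66, and without day 5 off replicate 1 it was 3.50 and called (edgeR adjusted p = 0.0182). With no low-count filter edgeR called all 3 genes, and DESeq2 called Steap3 (adjusted p = 0.0287) and Slc40a1 (adjusted p = 0.0167). Day 5 off replicate 2 was higher than replicate 1 in these 3 genes and in Slc11a2, and also in the erythroid markers Gata1 (21.1 CPM in replicate 2, 5.16 CPM in replicate 1) and Klf1 (23.1 CPM in replicate 2, 5.36 CPM in replicate 1). The part of those markers in the result was not tested.

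None of the remaining 6 genes was called at day 5. Tfrc had 111 and 203 CPM in day 5 off libraries, against 110 and 172 CPM in day 5 on libraries (log2 0.15, 2 SE interval −0.44 to 0.74). Ftl1 had 174 and 157 CPM in day 5 off libraries, against 124 and 128 CPM in day 5 on libraries, without overlap (0.39, 0.04 to 0.75). Aco1 had 11.8 and 11.3 CPM in day 5 off libraries, against 8.99 and 9.31 CPM in day 5 on libraries, also without overlap (0.33, −0.08 to 0.74). The log2 changes of Fth1 (−0.06, −0.37 to 0.25), Ncoa4 (0.04, −0.47 to 0.55) and Ireb2 (0.06, −0.26 to 0.38) had intervals on both sides of 0. The 6 genes had edgeR adjusted p from 0.335 to 0.961.

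**Figure D3:**
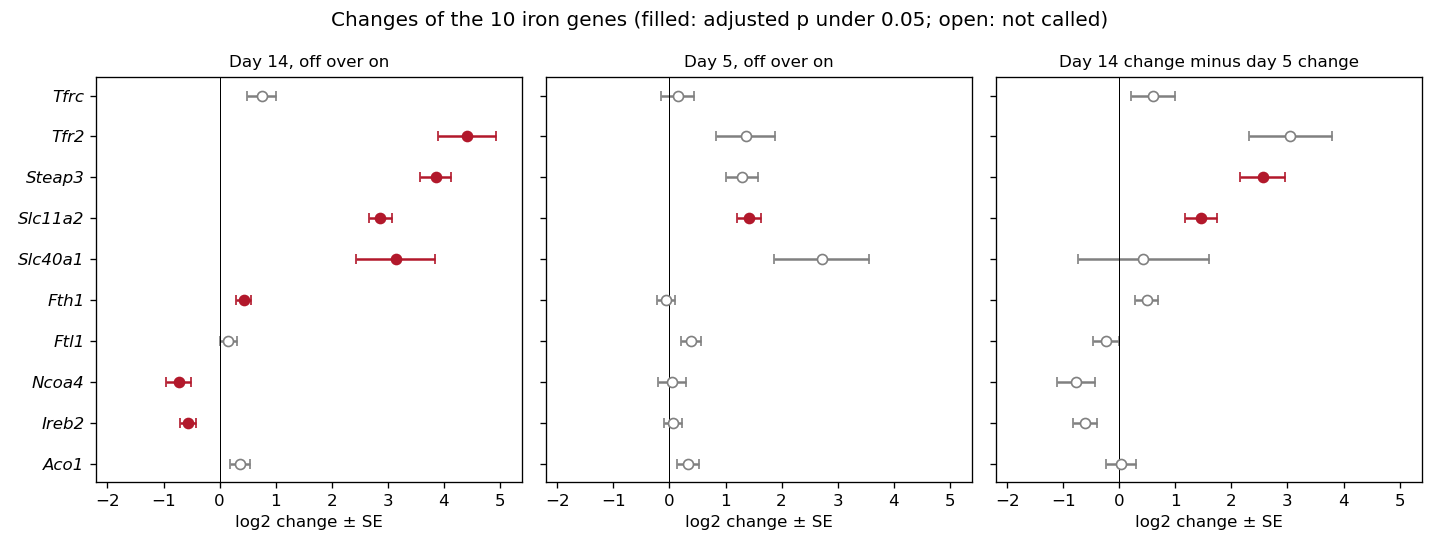
Log2 change with its SE for each of the 10 iron genes, off over on at day 14 (left), at day 5 (middle) and the day 14 change minus the day 5 change (right); filled red points had an edgeR adjusted p under 0.05 over all tested genes. At day 14, 7 genes are filled, with Tfr2 at 4.42 the farthest to the right; at day 5 only Slc11a2 (1.41) is filled, and in the difference Steap3 (2.56) and Slc11a2 (1.46).

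Whether the change differed between days was tested as the day 14 change minus the day 5 change. Steap3 (2.56 ± 0.40, SE; edgeR adjusted p = 0.0136) and Slc11a2 (1.46 ± 0.29; 0.0317) were called, 2 of 10 against 3.06% of tested genes in either direction (1.65% higher), and both were larger at day 14. The Steap3 call held in all 17 alternatives (2.27 to 2.91), whereas that of Slc11a2 was lost without any 1 of 8 libraries (edgeR adjusted p 0.0501 to 0.121; every library but day 5 off replicate 2 and day 5 on replicate 1), at log2 differences of 1.15 to 1.67. Tfr2 had a difference of 3.05 ± 0.74 that just missed the threshold (edgeR adjusted p = 0.0528) and was called with no low-count filter, by DESeq2 (adjusted p = 7.995e-04), as well as by edgeR without day 5 off replicate 2 (0.0230) or day 5 on replicate 2 (0.0186). The Tfr2 difference was called under 4 of 17 alternatives and ran from 1.94 to 3.93 over all 17. For Ireb2 (−0.62 ± 0.21), Ncoa4 (−0.77 ± 0.34) and Fth1 (0.49 ± 0.20) the difference was not called (edgeR adjusted p = 0.120, 0.202 and 0.184). Their day 14 calls are thus not shown to differ from day 5. For Ireb2 the difference was called without day 5 on replicate 1 (−0.83, edgeR adjusted p = 0.0499). The 487 genes called in all became 106, 209 and 111 without day 14 off replicates 1, 2 and 4, 180 and 130 without day 14 on replicates 1 and 2, 107 without day 5 off replicate 1 and 965 without day 5 on replicate 1. Of the 10 iron genes, 1 was called without any of the day 14 libraries or day 5 off replicate 1, and 3 without day 5 off replicate 2 or day 5 on replicate 1.

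Day 14 off was also set against day 5 off, which asks how levels moved with longer doxycycline. This comparison shares its day 14 off libraries with the first and its day 5 off libraries with the second, so its values are given for themselves. Steap3 (2.13 ± 0.24), Tfr2 (2.39 ± 0.42), Slc11a2 (1.32 ± 0.19) and Fth1 (0.54 ± 0.14) were called higher, Ncoa4 (−0.86 ± 0.22) and Ireb2 (−0.58 ± 0.14) lower (log2, SE; edgeR adjusted p from 0.00105 to 0.0230), 6 of 10 against 17.0% of tested genes (10.1% higher and 6.94% lower). Without day 5 off replicate 1, 3 of the 10 were called, and without day 5 off replicate 2, 4: Fth1, Ncoa4 and Ireb2 lost their calls without either library (edgeR adjusted p 0.0805 to 0.194), and Fth1 also without day 14 off replicate 1, 2 or 3 (0.0553 to 0.0769). Tfr2 was 3.27 higher without day 5 off replicate 2. The 2706 genes called in all became 1566 and 1717 without day 14 off replicates 1 and 2, and 601 and 1283 without day 5 off replicates 1 and 2. Slc40a1 was 1.56 ± 0.61 higher without a call (edgeR adjusted p = 0.107), and without day 5 off replicate 2 it was 3.61 higher and called (0.00934). It was also called with no filter, DESeq2 (adjusted p = 0.0374) and limma voom (adjusted p = 0.0380). Of the 11 tested macrophage markers 5 were called higher and 0 lower in this comparison by edgeR. Their part in the Slc40a1 change was not tested. Aco1 was 0.53 ± 0.18 higher (edgeR adjusted p = 0.0597), and the Tfrc and Ftl1 changes were 0.11 ± 0.26 and 0.09 ± 0.15.

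With DNMT3A R882H left on, 0 of the 10 genes were called between day 14 and day 5 by edgeR, DESeq2 or limma voom. Over all tested genes edgeR called 2.32% (0.968% higher). At an unadjusted p under 0.05 edgeR had 1 of the 10 and 3254 of all 15916 genes, so this count shows nothing particular to the 10. The 370 genes called in all became 0 to 680 when any single library was left out, which changed the count by over 1.5 times for every one of the 10. The 1 gene of the 10 with an unadjusted p under 0.05 was Aco1. It had 11.9 and 14.0 CPM in day 14 on libraries, against 8.99 and 9.31 CPM in day 5 on libraries (log2 0.50, 2 SE interval 0.10 to 0.91, edgeR adjusted p = 0.193). Steap3 (−0.43, −1.10 to 0.24), Tfr2 (−0.67, −1.91 to 0.58) and Slc11a2 (−0.14, −0.59 to 0.31) had intervals that include 0.

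Genes whose levels followed each iron gene most closely over the 10 libraries were taken by the smallest root mean square difference of centred log2 CPM. For Tfr2 these were Slc22a3 (0.29) and Kel (0.35), for Steap3 C1qtnf12 and Pla2g12a (0.32 each), for Slc11a2 Ccne1 (0.19) and Pla2g12a (0.20), and for Slc40a1 Icam4 (0.51) and Mfsd2b (0.53), where the median over 8111 or 8112 other genes was 1.86, 1.57, 1.26 and 1.78 in that order. For Fth1 they were Napa (0.07) and Atp5b (0.08), for Ireb2 Ramac (0.09) and Zfp148 (0.10), for Ncoa4 Phtf2 (0.12) and Acot7 (0.14), for Tfrc Ddx31 and Lage3 (0.15 each), for Ftl1 Senp2 and Agfg1 (0.09 each), and for Aco1 Alkbh5 and Sssca1 (0.11 each). The median over the other genes was 0.38 for Fth1, 0.44 for Ireb2, 0.58 for Ncoa4, 0.49 for Tfrc, 0.37 for Ftl1 and 0.43 for Aco1. Between the 10 genes the closest pairs were Fth1 with Aco1 (0.17), Ftl1 with Aco1 (0.26) and with Fth1 (0.27). Then came Tfrc with Fth1 (0.32), Ncoa4 with Ireb2 (0.33) and Steap3 with Slc11a2 (0.39). Medians were smaller for genes that changed little, so these distances do not rank pairs whose medians differ. Steap3 with Slc11a2 lay far below the medians of both genes, as did Tfr2 with Steap3 (0.48). The libraries share their groups and depth in all these values, and no test was made. Windows of 300 bases around the gene start (RefSeq, GRCm38.p6) numbered 17 and covered 8 of the 10 genes. Slc11a2 and Slc40a1 had no window and were not searched. The letters AGATAA on either strand were in 1 of the 17, at Steap3, against 11.2% of all 32851 windows. No member window held CACGTG, against 7.15%.

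Another 36 iron genes were listed by role, of which 30 had a count and 24 could be tested. At day 14, 4 were called higher and 4 lower, 8 of 24 against 31.8% of all tested genes, and their median log2 change was −0.36, against 0.01 over all tested genes. At day 5 edgeR called 0 of 24, against 0.484% of all tested genes (median 0.03, against −0.02). At an unadjusted p under 0.05 edgeR had 5 of 24, and 2374 of all 15916 genes. DESeq2 called 2 of 24 and 472 of all genes, and limma voom 0 of each. The edgeR counts of called genes at day 14 and at day 5 are near the share over all genes and show nothing particular to these genes. Of the 8 tested uptake, reduction and trafficking genes, 1 was higher and 1 lower at day 14. Trf, which encodes transferrin, had 12.7, 16.5, 18.6 and 21.8 CPM in day 14 off libraries, against 102 and 61.3 CPM in day 14 on libraries. All off libraries were lower (log2 −2.23 ± 0.26, SE; edgeR adjusted p = 2.23e-04), and at day 5 the 32.8 and 20.9 CPM of the off libraries were below the 52.7 and 38.4 CPM of the on libraries without a call (−0.77, edgeR adjusted p = 0.301). Slc39a8 encodes the metal importer ZIP8 and was higher, with 11.3, 10.3, 11.8 and 13.7 CPM in day 14 off libraries, against 2.59 and 1.90 CPM in day 14 on libraries (2.39 ± 0.36; edgeR adjusted p = 7.79e-04). At day 5 it had 3.82 and 8.60 CPM off, against 1.80 and 1.13 CPM on, without a call (2.13 ± 0.42; edgeR adjusted p = 0.0563).

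Of the ferritin turnover and chaperone genes, Tax1bp1, which is known to help deliver ferritin with NCOA4, was lower at day 14 (−0.86 ± 0.14, SE; edgeR adjusted p = 9.56e-04), with 115, 108, 126 and 128 CPM in day 14 off libraries, against 230 and 202 CPM in day 14 on libraries. The groups did not overlap, and Tax1bp1 and Ncoa4 were both lower. Herc2, a ubiquitin ligase known to act on NCOA4, was also lower (−0.39 ± 0.14; 0.0475), and Pcbp1, which delivers iron to ferritin, higher (0.69 ± 0.20; 0.0241). Herc2 lost its call under 9 of 18 alternatives and Pcbp1 under 5, in each case including the loss of either day 14 on replicate.

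Hfe, which binds the transferrin receptors, was higher (1.21 ± 0.33, SE; edgeR adjusted p = 0.0176), with 13.0, 7.39, 18.4 and 16.2 CPM in day 14 off libraries, against 6.63 and 5.24 CPM in day 14 on libraries. Zc3h12a, an RNase that cleaves Tfrc RNA, was lower (−0.80 ± 0.22; edgeR adjusted p = 0.0200), while Fbxl5, which targets iron regulatory protein 2 for degradation, was not called (−0.47 ± 0.29; 0.253). Both the Hfe and the Zc3h12a calls were lost without either day 14 on replicate (edgeR adjusted p 0.0598 to 0.121).

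Among the other transcripts with a known hairpin, Cdc42bpa was called higher at day 14 (2.28 ± 0.78, SE; edgeR adjusted p = 0.0477), a call lost under 9 of 18 alternatives, among them the loss of any library but day 14 off replicate 3 and the 2 day 5 on replicates (edgeR adjusted p 0.0521 to 0.203). The hairpin search above matched Alas2, in its 5′ UTR, but found no match in the listed transcripts of Cdc42bpa or Cdc14a. Alas2, the erythroid first enzyme of heme synthesis, had 7.70, 11.9, 12.2 and 9.32 CPM in day 14 off libraries and 7.25 and 3.97 CPM in day 14 on libraries, against 1.13 and 1.38 CPM in day 5 off libraries and 2.36 and 5.33 CPM in day 5 on libraries. It was lower off than on at day 5 in both libraries, without a call, and higher off than on at day 14, without a call. The difference between the days was called (2.51 ± 0.59; edgeR adjusted p = 0.0494) but lost under 12 of 17 alternatives, and it was 1.73 without day 5 on replicate 2. Day 14 off over day 5 off Alas2 was called at 3.02 ± 0.43 (0.00215), Tax1bp1 at −0.95 ± 0.13 (0.00212) and Cdc14a at −1.18 ± 0.27 (0.0148, lost without day 5 off replicate 1 at 0.125).

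**Figure D4:**
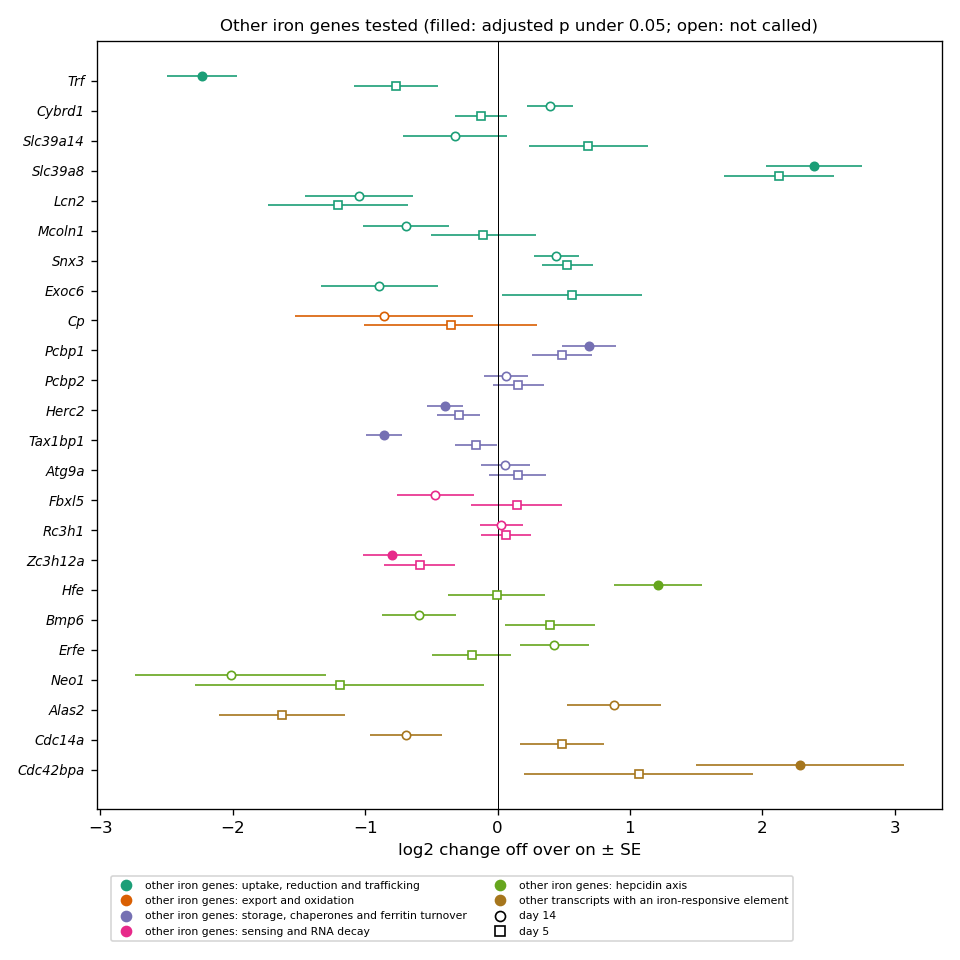
Log2 change off over on with its SE for the 24 other iron genes that could be tested, at day 14 (circles) and day 5 (squares), coloured by role; filled symbols had an edgeR adjusted p under 0.05. At day 14 Slc39a8 (2.39), Cdc42bpa (2.28) and Trf (−2.23) lie farthest from 0 among the filled, and no day 5 symbol is filled.

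Marker lists for the other cells a cKit-positive gate could hold are set beside these results. Over all tested genes 16.9% were called higher and 14.9% lower off over on at day 14, and 0.371% and 0.113% at day 5. Of 11 erythroid precursor genes 6 were called higher and 0 lower at day 14 (median log2 3.76), and 3 higher and 0 lower at day 5 (median 2.52). Slc4a1, Tspan33 and Nfe2 were not called at day 14, and neither were the mature globins Hba-a1 and Hbb-bt. Hba-a1 had 371 to 564 CPM in day 14 off, against 200 and 120 CPM in day 14 on libraries. Its groups did not overlap (log2 1.51 ± 0.52, SE, edgeR adjusted p = 0.0511). At day 5 it had 42.9 and 124 CPM off, against 37.2 and 125 CPM on. It was called higher in day 14 off over day 5 off (2.44 ± 0.55, edgeR adjusted p = 0.0157). Hbb-bt had 538 to 1140 CPM in day 14 off and 569 and 1337 CPM in day 14 on libraries. At day 5 it had 580 and 1096 CPM off and 975 and 2416 CPM on. Globin genes have near-identical copies, so their counts are uncertain. Proliferation genes summed to 1443 to 1735 CPM in day 14 off, 559 and 630 CPM in day 14 on, 1070 and 1098 CPM in day 5 off and 755 and 997 CPM in day 5 on libraries, with 10 of 10 called higher at day 14 and 0 of 10 at day 5. Neutrophil genes summed to 659 to 999.7 CPM in day 14 off and 1059 and 1900 CPM in day 14 on, with 0 of 10 higher and 3 lower. Lymphocyte genes summed to 88.6 to 129 CPM in day 14 off and 76.8 and 77.9 CPM in day 14 on. Of 6 tested lymphocyte genes 1 was higher and 1 lower, near the share over all genes. With its globins the erythroid list summed to 2562 to 3317 CPM in day 14 off and 857 to 1527 CPM in day 14 on libraries. At day 5 that sum was 777 to 1663 CPM off and 1085 to 2599 CPM on. The erythroid sum without globins and the proliferation sum both stood highest in the libraries where Tfr2, Steap3, Slc11a2 and Slc40a1 stood highest. Their part in those results was not tested.

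**Figure D5:**
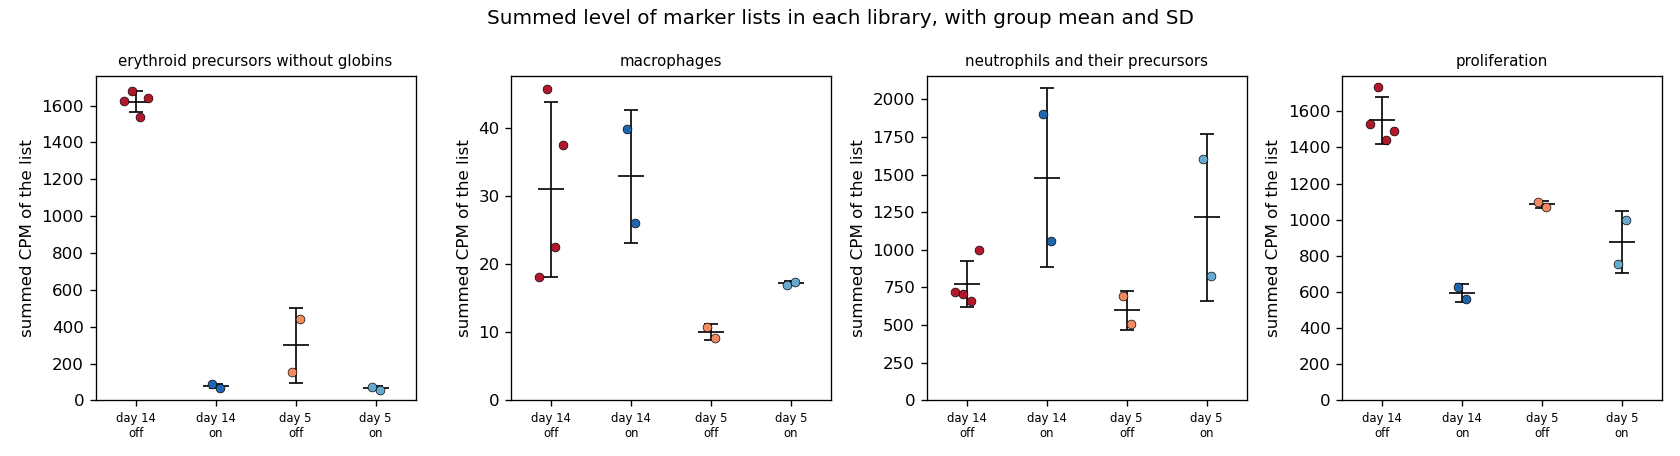
Summed TMM-scaled CPM of 4 marker lists in each library (points), with group mean and SD; the erythroid list is shown without its 2 globins. Erythroid genes sum to 1541 to 1679 CPM in day 14 off libraries and to at most 444 CPM in the others, and proliferation genes are also highest there, whereas macrophage genes overlap between off and on libraries at day 14.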

How the data were processed

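Per the labels' protocols, polyA RNA was made into QuantSeq 3′ libraries and read as single-end reads. The submitters' processing notes name cutadapt 1.14, HISAT2 2.0.4, featureCounts (Subread 2.0.0) and build mm10; no settings or strand are stated there. As deposited by the authors, the table holds un-normalised counts of reads for each Ensembl gene. Of 52636 IDs 52489 matched GENCODE M21.

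Counts were tested in R 4.3.3 with edgeR 4.0.16: filterByExpr, TMM, 1 robust quasi-likelihood fit over the 4 groups and 10 libraries, and Benjamini-Hochberg adjustment over 15916 genes (call at 0.05). Standard errors were taken from the F statistic. The fit was tested on simulated data. DESeq2 1.42.0, limma 3.58.1 voom, RLE scaling, 2 other filters, leaving out libraries, a replicate block and other settings were alternatives. The members, gene lists and markers were chosen with earlier results of these data known. All 10 members were named, up to 8 other iron genes by smallest p among those called at day 14, up to 3 in each other comparison, and 2 nearest genes per member (mean log2 CPM of at least 3); Fbxl5 and Cdc42bpa were named after their values were seen. The erythroid sum without globins was added after the data were seen. 1 listed gene in each of 2 lists is not reported here and stays in the fit alone.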

Additional observations from a re-analysis of the deposited data

Results flagged for a closer look

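Within the 4 day 14 off libraries, a single library stood apart from the other 3 in 2 of the 10 iron genes, by a test of the gap at the end of the range (critical value 0.829) that flags about 1 in 20 groups by chance. Slc11a2 had 67.2 CPM in replicate 2, and 62.0 to 62.7 CPM in the 3 others. Ncoa4 had 17.0 CPM in replicate 4, and 26.8 to 27.7 CPM in the 3 others.

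The change off over on differed between day 14 and day 5 by the test of the difference in edgeR for Steap3 (log2 difference 2.56), Slc11a2 (1.46) and Alas2 (2.51). Each was larger, or more positive, at day 14.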

How the results depend on the processing

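Of the 10 iron genes, 7 were called at day 14 and 5 to 8 when single libraries were left out. The day 5 count of 1 became 4 with no low-count filter, 3 with DESeq2 and 0 with limma voom or with only the compared groups, and 0 to 2 with a library left out. The day 14 over day 5 count was 3 to 6 in off libraries (6 in the full fit) and the count for the difference between days 1 to 3 (2 in the full fit). Over all genes, leaving out a library gave 2985 to 5738 calls at day 14 (5063), 0 to 304 at day 5 (77), 601 to 3409 for day 14 over day 5 off (2706), 0 to 680 on (370) and 106 to 965 for the difference (487). With no filter the last 4 comparisons gave 992 (day 5), 3421 (off), 1275 (on) and 1957 (difference), with DESeq2 472 (day 5), 1136 (on) and 1327 (difference), and with only the compared groups 0 (day 5) and 0 (on). With limma voom day 5 gave 0. Where a library was left out of a pair, the lone one was taken to have the spread of the rest. Depth limits Tfr2, Steap3 and Slc40a1 most, with 5 to 26 reads per library in the on groups.

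The labels do not pair libraries by replicate number, and the main fit did not either. Deviations from the group means still correlated positively between same-numbered libraries in every pair of groups, by 0.03 to 0.33, not above 0.1 in every pair. What same-numbered libraries share is not stated in the labels and was not tested. With the replicate block, Tfrc was called at day 14 (0.85, edgeR adjusted p = 0.0272). All genes called rose from 77 to 225 at day 5, from 370 to 1014 for day 14 over day 5 on and from 487 to 1521 for the difference.

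Leaving out single libraries turned the sign of 13 small changes that were not called. Off over on at day 14 this was Ftl1 (−0.069 to 0.40). At day 5 it was Tfrc (−0.35 to 0.55), Ncoa4 (−0.18 to 0.31), Fth1 (−0.21 to 0.10) and Ireb2 (−0.088 to 0.23). Day 14 over day 5 it was Tfrc off (−0.27 to 0.62) and, on, Slc11a2 (−0.36 to 0.068), Ncoa4 (−0.36 to 0.18), Fth1 (−0.11 to 0.22), Tfr2 (−1.35 to 0.42) and Ireb2 (−0.10 to 0.23). For the difference it was Aco1 (−0.12 to 0.16) and Slc40a1 (−0.37 to 2.48). The cause was not tested.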
